A study of Mus musculus with 6 samples.

Results

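Apoe and 7 further genes of lipoprotein handling were followed in leukaemic progenitors of the mouse with and without an induced Notch1 intracellular domain. Apoe was chosen by its lower intensity in the N1-IC samples, and Apoc2, Lpl, Nr1h2, Nr1h3, Lrp1, Pltp and Mylip were added for their function. All probe sets whose platform annotation gives 1 of these 8 symbols were taken. They were 10 of 45101 probe sets and covered 7 of the 8 genes, out of 18194 genes with a probe set. No probe set carried the symbol Nr1h2, and that gene is not analysed here.

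Apolipoprotein E is a lipid carrier that macrophages and other cells secrete, and that binds receptors of the LDL receptor family such as Lrp1. Apoc2 encodes the cofactor that activates lipoprotein lipase, the product of Lpl, which releases fatty acids from triglyceride-rich particles. The liver X receptors, LXRα (Nr1h3) and LXRβ (Nr1h2), are nuclear receptors for oxysterols. In macrophages they raise transcription of Apoe, Apoc2, Lpl, Pltp and Mylip.

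The samples were MLL-AF9 LGMP, a progenitor population of bone marrow sorted as YFP+, cKit+, CD34+ and FcgRII/III+ cells without Sca1 or lineage markers. MLL-AF9 is an oncogenic fusion of acute myeloid leukaemia, introduced by infection together with a YFP marker. Each lethally irradiated wild-type recipient aged 12 weeks got 50000 infected cKit+ cells with 250000 wild-type support marrow cells. Donors of the WT group (n = 3) were EF1αwt/wt ROSAwt/CreERT2 and those of the N1-IC group (n = 3) EF1αwt/lsl-N1-IC ROSAwt/CreERT2, so that both carried the tamoxifen-dependent Cre and only the second carried the Notch1 domain, behind a stop cassette in the EF1α locus. All mice of both groups were injected with tamoxifen (0.2 mg per g) 2 times, 4 weeks after transplantation, and were analysed 6 days later. How many recipients gave cells to a sample is not in the labels, so a p-value here reflects only the spread among the 6 samples, which may be technical.

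All WT samples were labelled male and all N1-IC samples female, so genotype and sex cannot be told apart in any value below. On the WT arrays Xist, a non-coding RNA made from the inactive X chromosome, had log2 intensities of 5.64, 10.70 and 5.42, against 12.73 to 12.82 in N1-IC. WT replicate 2, labelled male like the other WT samples, thus stood apart from them by Xist. The Y-linked Eif2s3y read 11.31, 10.34 and 11.26 in WT and 2.94 to 3.46 in N1-IC, so WT replicate 2 was high in both genes. The cause was not tested. WT replicate 2 also held the highest summed intensity of 9 erythroid markers, 17358 against 3595 to 5594 on the other arrays. By group means 8 of these 9 were lower in N1-IC and 1 higher (median log2 fold change -0.79, beside 0.01 over all genes). WT replicate 1 had the lowest sum of 9 late granulocyte markers, 8028 against 51959.8 to 70166 elsewhere. All 9 had the higher mean in N1-IC (median 0.87), and 1 of them, the gelatinase gene Mmp9, did not overlap between the groups, at 4.14, 7.36 and 7.01 log2 units in WT and 8.59, 9.27 and 8.78 in N1-IC (2.71 ± 0.84, limma adjusted p = 0.618). The part of these markers in the values below was not tested. Array medians were 49.6 to 51.0 intensity units. Of the sort markers, Kit, Cd34, Fcgr2b and Fcgr3 lay between 10.05 and 13.12 log2 units on all 6 arrays, above the array medians of 5.63 to 5.67. Cd34 was lower on every N1-IC array (log2 fold change -0.72, standard error 0.32). Of 6 Notch target genes, 3 did not overlap between the groups, beside 14.8% of all 18194 genes, and 0 passed a limma adjusted p under 0.05. Nrarp, Hes1 and Hey1 were higher on every N1-IC array, with log2 fold changes of 2.83 ± 0.80, 1.203 ± 0.38 and 0.35 ± 0.09. Each had a limma adjusted p of 0.618. Hes5, Heyl and Dtx1 overlapped between the groups, with 0.11 ± 0.15, 0.17 ± 0.10 and -0.09 ± 0.11. Hey1, Heyl and Dtx1 lay below the array medians on all 6 arrays. Without detection calls, it is not known whether these 3 exceed background.

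The 250 bases before the start sites of Apoe, of its neighbour Apoc2 and of the receptor gene Nr1h3 are shown because Apoe and Apoc2 are LXR targets on the same stretch of chromosome 7, with log2 fold changes of -1.70 and 0.59, and Nr1h3 encodes the liver X receptor alpha. Sequences are from RefSeq, build GRCm38.p6, written 5′ to 3′ on the strand of the gene, the minus strand in each case. Capitals mark exact matches to TGGGAA, the core bound by the Notch partner RBPJ, or to AGGTCA, the single site that LXR and other nuclear receptors bind as a repeat, on either strand.
Apoe, chr7:19699189-19699438: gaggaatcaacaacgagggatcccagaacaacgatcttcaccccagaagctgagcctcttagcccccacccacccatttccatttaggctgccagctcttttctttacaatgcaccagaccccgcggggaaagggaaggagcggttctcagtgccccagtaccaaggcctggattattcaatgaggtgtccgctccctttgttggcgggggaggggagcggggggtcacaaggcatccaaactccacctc
Apoc2, chr7:19677942-19678191: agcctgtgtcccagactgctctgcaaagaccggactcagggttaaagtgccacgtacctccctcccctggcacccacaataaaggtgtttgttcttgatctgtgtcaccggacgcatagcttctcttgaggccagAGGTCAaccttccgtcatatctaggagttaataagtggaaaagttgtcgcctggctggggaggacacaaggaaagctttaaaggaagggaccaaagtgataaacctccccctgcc
Nr1h3, chr2:91195117-91195366: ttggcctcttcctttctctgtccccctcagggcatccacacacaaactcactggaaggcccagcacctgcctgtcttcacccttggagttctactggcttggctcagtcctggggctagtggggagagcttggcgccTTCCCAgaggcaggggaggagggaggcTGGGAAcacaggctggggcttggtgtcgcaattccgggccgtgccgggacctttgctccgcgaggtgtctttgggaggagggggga
RefSeq start sites gave 10 such windows for 7 of the 8 genes, and Lpl had no window in the table. None of the 3 windows of Apoe held either motif. TGGGAA was in windows of 3 genes, Lrp1, Mylip and Nr1h3, and in 21.6% of 32851 windows of all genes. AGGTCA was in the window of 1 gene, Apoc2, and in 14.0% of all windows. Counts of genes and shares of windows are unlike measures, since a gene can have several windows. Those of Nr1h3 overlap and hold the same matches. A match is a stretch of letters and not a shown binding site, and these windows leave out distal enhancers, among them those from which LXR is known to act on Apoe in macrophages.

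Apoe was 3.26-fold dimmer in N1-IC than in WT. Its single probe set read 510, 376 and 539 intensity units on WT arrays 1, 2 and 3 and 156, 111 and 172 on N1-IC arrays 1, 2 and 3. On the log2 scale these are 8.99, 8.55 and 9.08 against 7.29, 6.80 and 7.43, so the lowest WT array stood above the highest N1-IC array. The means were 8.87 ± 0.28 and 7.17 ± 0.33 (SD, n = 3 each), a log2 fold change of -1.70 ± 0.21 (moderated standard error). This difference chose the gene and is given as a description, with no test. All 6 values lay above the array medians. In sorted cells, fewer Apoe-expressing cells and less Apoe RNA per cell cannot be told apart.

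The groups did not overlap and Apoe was chosen for this difference, so leaving out 1 array could not remove it. With each array left out in turn the log2 fold change ran from -1.86 to -1.52. It was -1.64 without WT replicate 1, the array low in granulocyte markers, and -1.86 without WT replicate 2, the array high in erythroid markers and in Xist. On N1-IC replicates 1, 2 and 3 Nrarp had log2 values of 8.01, 9.74 and 11.33, and Apoe 7.29, 6.80 and 7.43. How Nrarp and Apoe vary together was not tested.

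Markers of macrophages, which secrete apolipoprotein E, differed in both directions. Of 15 such markers the N1-IC mean was the higher one for 10 and the lower one for 5, and 0 passed a limma adjusted p under 0.05 (5 had an unadjusted p under that value, as did 7.98% of all genes). Their summed intensity was 3989.8 to 4755 in WT, against 1934 to 3844 in N1-IC. Without Vcam1, an adhesion molecule of several cell types, the sums were 1996 to 2184 in WT, against 1340.3 to 2281 in N1-IC. This second sum was not among the planned descriptions. Of all genes, 6.52% were lower and 8.32% higher on every N1-IC array. Among the 15 markers 1, Vcam1, was lower in this way (log2 fold change -1.17 ± 0.36) and 4 were higher. These 4 were the mannose receptor gene Mrc1 (1.36 ± 0.46), C1qa (0.45 ± 0.19), C1qc (0.40 ± 0.14) and the scavenger receptor gene Marco (0.30 ± 0.13), of which C1qa and Marco are named after their values were seen. C1qb had 0.74 ± 0.28, with overlapping groups. The other markers with lower N1-IC means, also named after their values were seen, overlapped between the groups. They were Cd163 (-0.97 ± 0.79), Adgre1 (-0.57 ± 0.43), Siglec1 (-0.18 ± 0.12) and Hmox1 (-0.02 ± 0.39). Adgre1 was bright, at 9.05 to 10.54 log2 units. The complement genes C1qa, C1qb and C1qc, usually abundant in tissue macrophages, were dim, at 3.54 to 4.70 log2 units in WT and 3.91 to 5.72 in N1-IC. Cd5l was below the lower quartile on all 6 arrays. The part of such cells in the Apoe values was not tested.

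**Figure D1:**
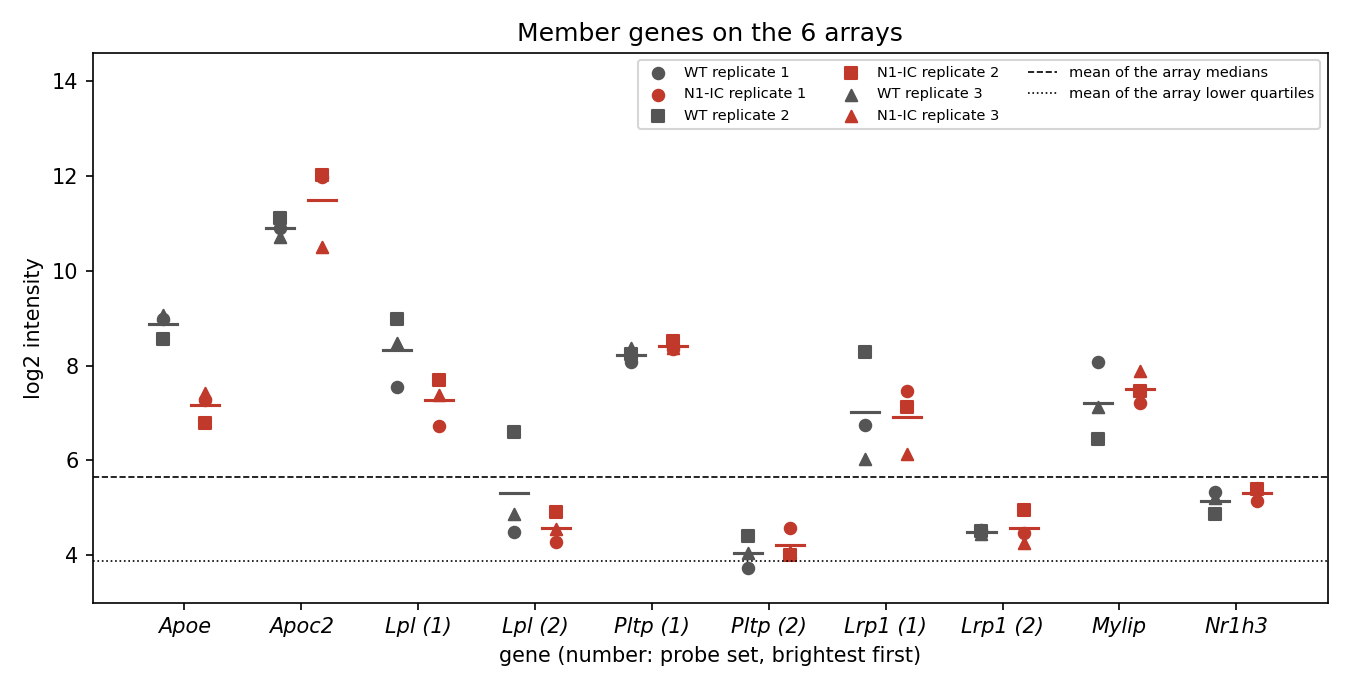
Log2 intensity of each probe set of the 7 measured genes on the 3 WT arrays (grey) and the 3 N1-IC arrays (red); bars are group means, symbols are replicate numbers and the horizontal lines are the means of the array medians and lower quartiles. Apoe is the one gene whose groups do not overlap, from 8.55 to 9.08 (WT) and from 6.80 to 7.43 (N1-IC).

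Of the 7 measured genes, 4 were higher and 3 lower by their N1-IC means, with a median log2 fold change of 0.18 beside 0.01 over all genes. Between the groups, the arrays of 1 gene, Apoe, did not overlap, and those of 14.8% of all 18194 genes did not either (6.52% lower and 8.32% higher in N1-IC). Since Apoe was chosen for this, nothing is read from that count. Apoe is left out of the next counts for the same reason. Of the other 6, 0 passed a limma adjusted p under 0.05 over all genes, and 1, Lpl, had an unadjusted p under 0.05. In the same fit 0.00550% of all genes passed and 7.98% had an unadjusted p under 0.05.

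Apoc2, the lipase cofactor gene, read 10.90, 11.11 and 10.72 log2 units in WT, against 11.97, 12.02 and 10.50 in N1-IC. N1-IC replicates 1 and 2 were above all WT arrays and replicate 3 was below all of them. The means were 10.91 ± 0.19 and 11.50 ± 0.87 (SD, n = 3), and limma's difference was 0.59 ± 0.42 on that scale (adjusted p = 0.675). The difference was 1.09 without N1-IC replicate 3, and 0.35 or 0.32 without N1-IC replicate 1 or 2.

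Lpl, the lipoprotein lipase gene, read 7.55, 8.98 and 8.49 log2 units in WT, against 6.73, 7.70 and 7.37 in N1-IC. WT replicate 1 lay just below N1-IC replicate 2, so the groups overlapped. The means were 8.34 ± 0.73 and 7.27 ± 0.49 (SD, n = 3), a log2 fold change of -1.07 ± 0.41 (adjusted p = 0.618). The dimmer probe set of Lpl also had a negative log2 fold change, -0.74 ± 0.55. It read 4.49, 6.60 and 4.87 in WT and 4.28 to 4.91 in N1-IC, so WT replicate 2 alone was well above the rest. By the brighter probe set the log2 fold change was -0.75 without WT replicate 2 and -1.47 without WT replicate 1.

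Pltp, which encodes the phospholipid transfer protein of plasma lipoproteins, varied little. Its brighter probe set read 8.09, 8.24 and 8.38 in WT and 8.36, 8.51 and 8.37 in N1-IC. The log2 fold change was 0.18 ± 0.11 (adjusted p = 0.655), and the groups overlapped. The other probe set, at 3.73 to 4.56 and near the lower quartile of the arrays, had 0.16 ± 0.23.

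Lrp1, a large endocytic receptor that takes up Apoe-bearing particles, read 6.74, 8.29 and 6.02 log2 units in WT, against 7.46, 7.13 and 6.13 in N1-IC. The spread within WT was wider than the difference between the groups, with means of 7.02 ± 1.16 and 6.91 ± 0.69 (SD, n = 3). The log2 fold change was -0.11 ± 0.63 (adjusted p = 0.96), and it was 0.53 without WT replicate 2 and 0.28 without N1-IC replicate 3. The other probe set lay below the array medians, at 4.26 to 4.96, with 0.07 ± 0.19. No direction can be given for Lrp1.

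Mylip encodes the ubiquitin ligase also called IDOL, an LXR target that marks the LDL receptor for breakdown. Its log2 intensities were 8.08, 6.46 and 7.13 in WT and 7.20, 7.46 and 7.89 in N1-IC. WT held both the highest and the lowest value. The log2 fold change was 0.30 ± 0.42 (adjusted p = 0.821), and it was -0.09 without WT replicate 2.

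Nr1h3, the LXRα gene, was below the array median on all 6 arrays. It read 5.34, 4.86 and 5.21 in WT and 5.14, 5.39 and 5.43 in N1-IC, with overlapping groups. The log2 fold change was 0.19 ± 0.15 (adjusted p = 0.704) and 0.05 without WT replicate 2. Without detection calls, it is not known whether values this low exceed background.

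By the brighter probe sets WT replicate 2 was highest of the WT arrays for Apoc2, Lpl and Lrp1 and lowest for Apoe, Mylip and Nr1h3. For Pltp it lay between the others. With 3 WT arrays, most stand at an end of the range for any gene, so nothing is read from these positions. The part of the erythroid markers of WT replicate 2 in these values was not tested.

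**Figure D2:**
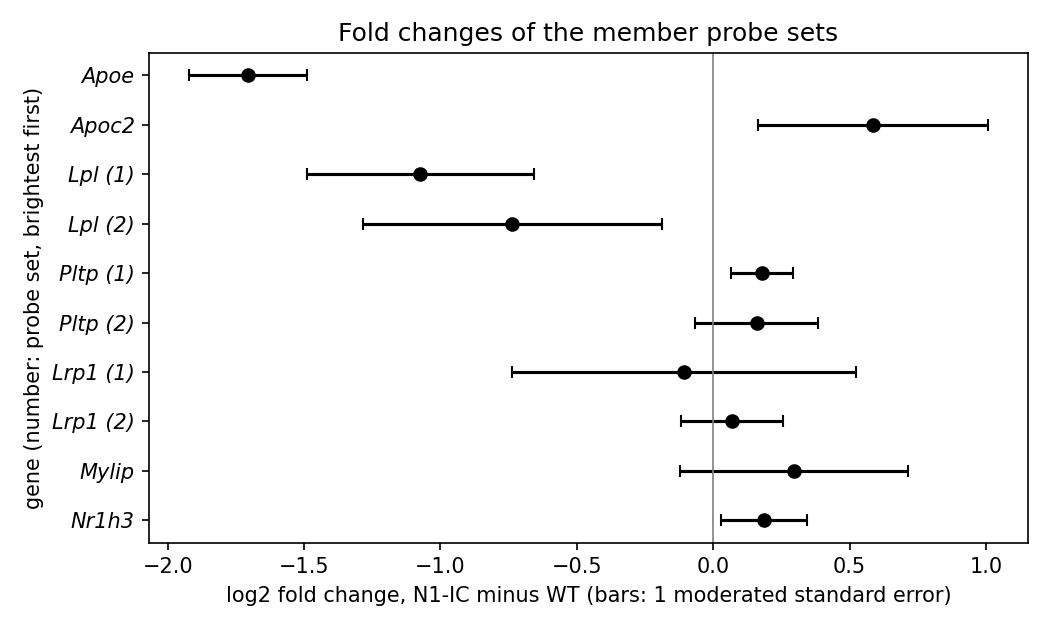
Log2 fold change of N1-IC against WT for each probe set of the 7 genes, from the limma fit over all probe sets, with 1 moderated standard error on either side. Apoe lies at -1.70 and the probe sets of Lpl at -1.07 and -0.74, and the other 7 probe sets lie between -0.11 and 0.59.

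The genes next to Apoe on chromosome 7 were compared to see whether the locus moved as a whole. In RefSeq order Apoc2, Apoc4 and Apoc1 lie on one side of Apoe, and Tomm40, Nectin2, Bcam and Cblc on the other. Apoc1, which encodes a small apolipoprotein that shares regulatory elements with Apoe, read 8.01, 7.13 and 7.18 in WT and 8.20, 7.02 and 6.69 in N1-IC. Its log2 fold change was -0.14 ± 0.44 (adjusted p = 0.926), with overlapping groups. Apoc4 had -0.04 ± 0.13 at values below the array medians. Tomm40, of the mitochondrial import pore, and the adhesion gene Nectin2 were lower on every N1-IC array, by smaller amounts, with log2 fold changes of -0.31 ± 0.11 and -0.27 ± 0.12. Cblc was higher on every N1-IC array (0.37 ± 0.13), and Bcam and Clptm1 overlapped between the groups. None of these neighbours passed (limma adjusted p of 0.618 to 0.958). Nectin2 and Bcam lay near or below the array medians.

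**Figure D3:**
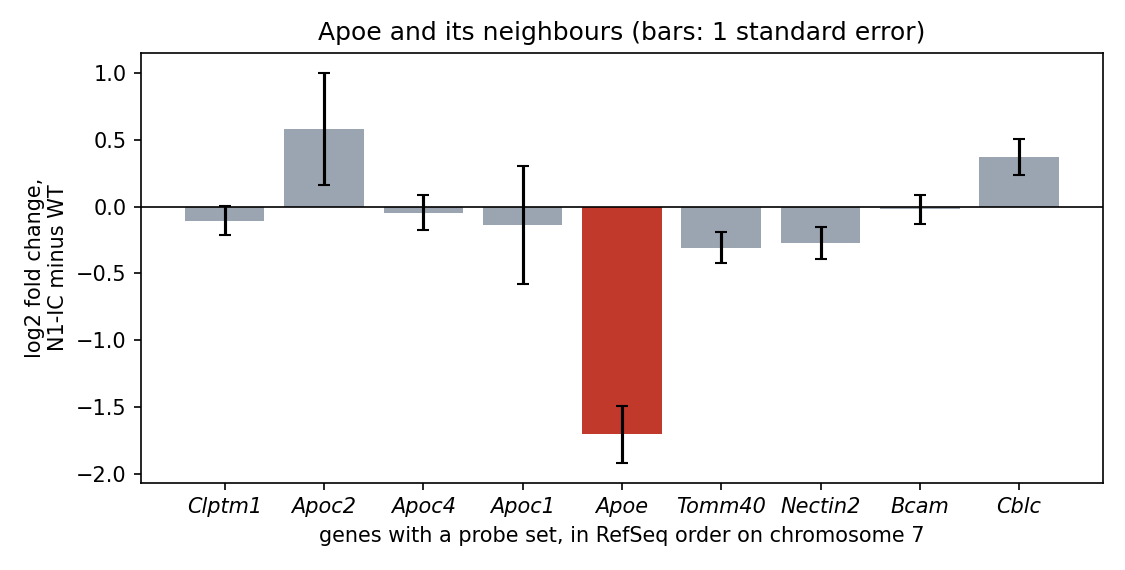
Log2 fold change of N1-IC against WT for Apoe (red) and its neighbours (grey) in their order on chromosome 7, which is not to scale; error bars are 1 moderated standard error of the fit over all genes. Apoe stands at -1.70, and the neighbours lie between -0.31 and 0.59.

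The other apolipoprotein genes were mostly dim in these cells. Of 13 measured, 9 were higher and 4 lower by their N1-IC means, with a median log2 fold change of 0.10, and 0 passed in limma (1 had an unadjusted p under 0.05). Apoa4, a component of chylomicrons and HDL, was higher on every N1-IC array by its brighter probe set. The means were 7.05 ± 0.05 against 6.71 ± 0.18 (SD, n = 3), a log2 fold change of 0.34 ± 0.11. Its other probe set had 0.15. Apom, the carrier of sphingosine-1-phosphate on HDL, had 0.31 ± 0.18 by its brighter probe set and -0.02 by the other. Apoc3, an inhibitor of lipoprotein lipase, and Apoa1, the main protein of HDL, had 0.13 ± 0.12 and -0.26 ± 0.28. Apob, Apod and Apoh lay below the lower quartile on all 6 arrays.

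Lipoprotein and scavenger receptor genes had 7 of 17 measured members higher and 10 lower, with a median of -0.07 and 0 passed in limma (3 had an unadjusted p under 0.05). Lrpap1, the chaperone that keeps receptors of the Lrp1 family free of ligand on their way to the surface, read 11.74, 11.71 and 11.60 in WT and 11.06, 11.08 and 11.23 in N1-IC. The groups did not overlap and the log2 fold change was -0.56 ± 0.09, with an unadjusted p of 0.000889 and a limma adjusted p of 0.618. All 4 of its probe sets had a negative log2 fold change, from -0.56 to -0.13, and both dimmer ones overlapped between the groups. Scarb1, the HDL receptor gene, was also lower on every N1-IC array, by its brightest probe set (-0.22 ± 0.15), a gene chosen after its values were seen. The Lrp1 relatives Lrp12, Lrp4 and Lrp5 had -0.87 ± 0.32, 0.31 ± 0.13 and -0.24 ± 0.11, and Lrp4 was higher on every N1-IC array.

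Genes of lipases, lipid transfer and lysosomal lipid export had 4 of 11 members higher and 7 lower, with a median of -0.04 and 0 passed (0 had an unadjusted p under 0.05 in limma). Lmf1, which matures lipoprotein lipase in the endoplasmic reticulum, had -0.27 ± 0.12 by its brighter probe set and -0.004 by the other. Pnpla2, the triglyceride lipase of lipid droplets, had -0.27 ± 0.15 by its brighter probe set. Its dimmer probe set had -0.92 and was lower on every N1-IC array, at 4.67 to 4.96 against 5.46 to 6.17 in WT. Lcat, which esterifies cholesterol on HDL, had 0.17 ± 0.10. Mttp, which loads lipid onto apolipoprotein B, had 0.69 ± 0.56 by its brighter probe set and -0.36 by the other.

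LXR target genes outside the 8 had 4 of 13 measured members higher and 9 lower, with a median log2 fold change of -0.07, and 0 passed in limma (2 had an unadjusted p under 0.05). Rnf145, an LXR-induced ubiquitin ligase that restrains cholesterol synthesis, read 10.17, 9.68 and 9.93 in WT and 9.46, 9.34 and 9.66 in N1-IC. Fasn, the fatty acid synthase gene, read 9.89, 9.91 and 9.66 in WT and 9.50, 8.95 and 9.60 in N1-IC. Each was lower on every N1-IC array, with log2 fold changes of -0.44 ± 0.16 and -0.47 ± 0.19 and an adjusted p of 0.618. Abcg8, a subunit of a sterol exporter of liver and gut, was higher on every N1-IC array (0.26 ± 0.11) at values below the array medians. Lpcat3, which remodels membrane phospholipids, had -0.18 ± 0.12.

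The cholesterol exporters that hand lipid to Apoe, and the lipogenic regulator Srebf1, are among the most used LXR readouts and are named here after their values were seen. Abcg1 had a log2 fold change of -0.33 ± 0.21, Abca1 -0.70 ± 0.64 and Srebf1 -0.07 ± 0.16. All 3 overlapped between the groups, and the difference between their changes and that of Apoe was not tested. By dimmer probe sets Abca1 had -0.06 and 0.01, and Abcg1 -0.37.

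LXR partners and cofactors had 8 of 14 measured members higher and 6 lower, with a median of 0.01, and 0 passed in limma (1 had an unadjusted p under 0.05). Rxra, which encodes the retinoid X receptor that pairs with LXR, had 0.59 ± 0.22 by its brightest probe set, while its other probe sets had -0.01 and -0.12. Rxrb, another such partner, was higher on every N1-IC array by a small amount (0.12 ± 0.09). Tbl1xr1 and Gps2, subunits of the corepressor complex that LXR recruits, had 0.15 ± 0.10 and -0.25 ± 0.18. The other probe sets of Tbl1xr1 ran from -0.65 to 0.40. Genes of oxysterol making and sterol sensing had 6 of 9 members higher and 3 lower, with a median of 0.12, and 0 passed (0 had an unadjusted p under 0.05). Cyp27a1, which makes an oxysterol ligand of LXR, had 0.66 ± 0.41. Ch25h, which makes another oxysterol, was higher on every N1-IC array (0.26 ± 0.11) but dim, at 4.56 to 5.03. Srebf2 and Nceh1, for sterol synthesis and cholesterol ester hydrolysis, had 0.12 ± 0.10 and 0.21 ± 0.19. By other probe sets Cyp27a1 had 0.14, Srebf2 -0.02, and Nceh1 -0.18 and 0.04.

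**Figure D4:**
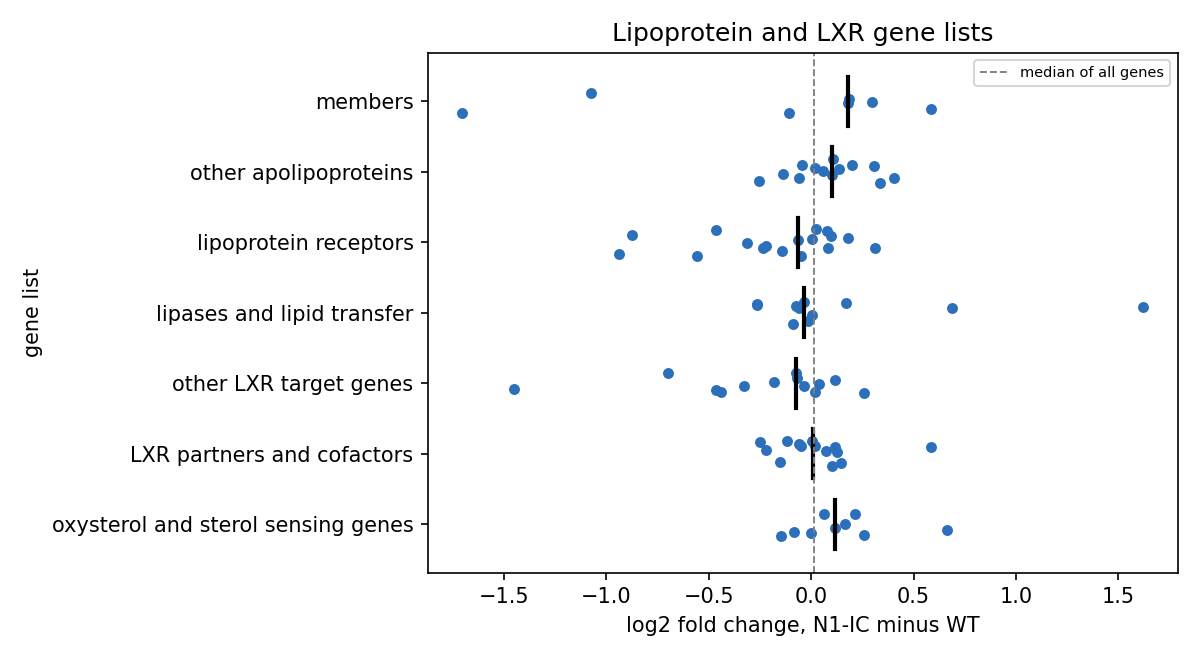
Log2 fold change of N1-IC against WT for each measured gene of the 8 and of 6 further lists; a point is a gene by its brightest probe set, the black bar is the median of the list and the dashed line the median of all genes, 0.01. The list medians lie between -0.07 and 0.18. Apoe was chosen for its difference and is not counted, and 0 of the other genes passed the limma threshold.

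Genes with array profiles nearest to that of Apoe were found by the root mean square difference between log2 values, each gene centred on its own mean over the 6 arrays, among all 18194 genes. The nearest 5 were Fndc10, Wfs1, Rbm24, Hmgn3 and Zfp583, at 0.281, 0.289, 0.329, 0.341 and 0.37 log2 units. All 5 had lower means in N1-IC, which nearness to Apoe brings with it. Wfs1 encodes wolframin, a membrane protein of the endoplasmic reticulum, Rbm24 an RNA-binding protein and Hmgn3 a nucleosome-binding protein. Hmgn3 read 11.66, 10.54 and 11.72 in WT and 10.40, 9.59 and 10.23 in N1-IC. It shared with Apoe a low WT replicate 2 and a low N1-IC replicate 2, which the choice by nearness also brings with it. None of the other 6 measured genes of lipoprotein handling was among these 5, as would hold for almost any 6 of 18194 genes.

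**Figure D5:**
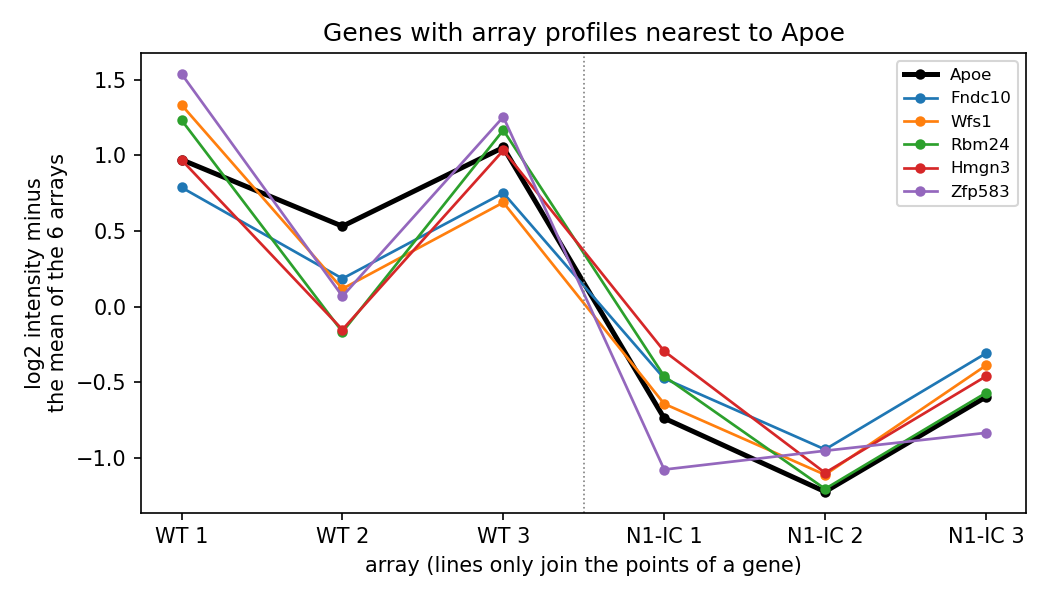
Log2 intensity on each array minus the gene's mean over the 6 arrays, for Apoe (black) and the 5 genes nearest to it; lines only join the points of a gene. Each gene is higher on WT replicates 1 and 3 than on WT replicate 2, and each has a lower mean in N1-IC than in WT, from a log2 fold change of -1.15 for Fndc10 to -1.91 for Zfp583. The choice by nearness to Apoe brings this likeness with it.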

How the data were processed

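Total RNA (5 ng per sample, per the labels' protocols) was amplified by NuGEN Ovation chemistry and hybridised to 6 Affymetrix arrays. The intensities deposited by the authors are linear, 1 per probe set and array, and the submitters' processing notes name RMA, with no version. The arrays share nearly 1 distribution, so a change is relative to the rest of the array. Log2 was taken with no offset. Of 45101 probe sets, 34958 had 1 gene symbol, 932 several and 9211 none. Each of 18194 genes was represented by its brightest probe set.

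N1-IC was compared with WT in R 4.3.3 with limma 3.58.1 (lmFit, eBayes), with Benjamini-Hochberg adjustment over all genes or all probe sets and a threshold of 0.05. The fit was tested on simulated data. Errors of fold changes are moderated standard errors. Members and lists were chosen with earlier results of these data known, so no test over a list is given. Text names the members, all sort and Notch target genes, up to 4 genes of smallest p of each lipid list and of the macrophage list (other marker lists are given by counts, with Mmp9 the one gene named), the 4 nearest neighbours of Apoe on each side and the 5 nearest profiles. Beyond the macrophage, erythroid and late granulocyte markers, lists of megakaryocyte, mast cell and basophil, stromal and endothelial, B cell, and T and NK cell markers had 0 genes passing in limma, with 2, 0, 0, 0 and 0 genes at an unadjusted p under 0.05. The number of arrays limits the precision.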

Additional observations from a re-analysis of the deposited data

How the results depend on the processing

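The log2 fold change of Apoe, the value it was chosen for, lay between -1.86 and -1.52 under all 14 alternatives that gave a value. Some alternatives cannot move it, such as the mean-variance trend, the robust prior and the replicate block, which left it at -1.70. Lrp1 changed sign with array weights (0.021), without WT replicate 2 (0.526) and without N1-IC replicate 3 (0.279), and with each array left out it ran from -0.606 to 0.526. Mylip changed sign without WT replicate 2, and ran from -0.085 to 0.726. The 4 other genes kept their sign. Apoe is not counted here, and none of the other 6 passed limma's threshold in any alternative (adjusted p from 0.402 to 0.991). Among all genes 1 passed, the Y-linked Eif2s3y, and the count was 3 with a mean-variance trend, 2 with array weights, 2 in genes no dimmer than the median gene, 5 with probe sets averaged per gene, 4 over all probe sets and 4 at an adjusted p under 0.1. With the replicate block it was 0 (1162 at an unadjusted p under 0.05), though deviations of same-numbered arrays correlated across genes at only 0.009, 0.061 and -0.11, and without X- and Y-linked genes 0 (1395). Leaving out 1 array gave 0 to 5 genes, 0 without WT replicate 3 (2446 at an unadjusted p under 0.05) and 5 without WT replicate 2. The cause was not tested. Nr1h3 is below the median gene level and has no value in that alternative. Dim probe sets, such as those of Nr1h3, limit what can be read, since detection calls were not used here.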

Other observations

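Some lipid genes outside the 8 differed between arrays rather than between genotypes, and they are named here after their values were seen. Lipg, the endothelial lipase gene, read 4.04 log2 units on WT replicate 1 and 9.03 to 9.78 on the other 5 arrays by its brightest probe set, and a second probe set gave 4.19 against 8.97 to 9.59, while the remaining one lay at 4.34 to 4.53 on all 6 arrays. WT replicate 1 was also the array with the lowest late granulocyte markers. Scd1, a fatty acid desaturase gene and LXR target, read 7.78 on WT replicate 2 and 2.84 to 4.22 on the others by its brighter probe set. The dimmer probe set of Scd1 read 3.20 on WT replicate 2 and 2.79 to 3.07 on the others. Cd36, a fatty acid and scavenger receptor gene, read 5.84 on WT replicate 2 and 3.45 to 4.24 elsewhere. WT replicate 2 was the array with the most erythroid markers. The log2 fold changes between the groups, 1.62 ± 1.47 for Lipg, -1.45 ± 1.25 for Scd1 and -0.94 ± 0.55 for Cd36, come from groups in which 1 WT array stood apart. Clu, which encodes the apolipoprotein clusterin, was lowest on WT replicate 1 (6.90) and N1-IC replicate 2 (7.01) and reached 8.05 to 8.78 on the other arrays, with all 4 of its probe sets ordered in this way at the low end.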
